A study of Mus musculus with 26 samples.

Results

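The heat shock chaperones described here are 42 genes of the 55416 in the count tables. They were chosen by symbol as the chaperones of the heat shock system that work outside the endoplasmic reticulum (ER), in the cytosol and nucleus or in mitochondria. The choice was made with earlier results of these data known, so the shares of rhythmic members below are not independent of it. They comprise 7 genes of the HSP70 and HSP110 families, 10 of HSP90 and its cochaperones, 8 J proteins, 6 cofactors of HSP70, 4 small heat shock proteins, 5 mitochondrial chaperones and the heat shock factors Hsf1 and Hsf2. All 42 had a mean of at least 1 CPM (a count scaled to the size of its library) in both groups of the time series, as had 13697 genes in all, and these were tested.

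RNA was measured in the choroid plexus (ChP), the epithelial tissue that secretes cerebrospinal fluid, taken from the fourth ventricle of adult male mice. Of the C57Bl6J mice, 12 had sham surgery (Ctrl) and 12 a surgical ablation of the suprachiasmatic nuclei (SCNx), the central circadian clock of the brain. After time under a light cycle with days and nights of 12 h, both groups were kept in constant darkness. From circadian time (CT) 0 to CT44, 1 mouse of each group was taken every 4 h, so that the 2 cycles hold 1 mouse per time and group. The study excluded SCNx mice with a locomotor rhythm in darkness, so CT in SCNx follows the earlier light cycle and not a mouse's own phase. In SCNx, weaker rhythms within mice and differing phases between mice therefore cannot be told apart. The remaining 2 libraries came from FoxJ1-ERT2-Cre+/-; Bmal1fl/fl mice fed tamoxifen at 0.4 g/kg (KO), a model in which tamoxifen lets the Cre delete the clock gene Bmal1 in cells that express Foxj1, which are those with motile cilia, 1 taken at Zeitgeber time (ZT) 7 and 1 at ZT18 under the light cycle. The KO mice were older by the study's methods and kept at another site, their tissue was cut from frozen brains by laser capture and another library kit was used, recombination was tested in liver only, and no mouse without the Cre was sequenced, so that genotype, age and these steps cannot be told apart. P-values over single mice measure the spread between mice of 1 time series, and in whole tissue fewer cells of a type and less RNA per cell cannot be told apart.

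Heat shock proteins bind unfolded or partly folded proteins and keep them from aggregating. HSP70, helped by J proteins that deliver clients and by exchange factors that release them, hands many clients on to HSP90, whose cochaperones set the order and speed of its cycle. Heat shock factor 1 (HSF1) switches most of these genes on through heat shock elements, which are inverted repeats of the letters GAA and TTC, and daily changes of body temperature are known to entrain peripheral clocks through this pathway.

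The libraries of Ctrl and SCNx held 38751201 to 49527655 estimated counts, and the KO libraries 17425207 and 18059227. Markers of ChP epithelium summed to at least 106699 CPM in every library of the time series. Hepatocyte markers summed to 2813 CPM in Ctrl CT16 and to 13050 CPM in SCNx CT0, against medians of 337 and 342 CPM, and neuron markers to 319 CPM in Ctrl CT4 and 314 CPM in SCNx CT32, against a median of 15.9 CPM in SCNx. Without Ctrl CT16 and SCNx CT0, 22 members were rhythmic in Ctrl, and without Ctrl CT4 and SCNx CT32, 24, against 22 with all libraries. The clock genes Arntl, Nr1d1, Dbp, Per2 and Ciart were each rhythmic in Ctrl, with amplitudes of 1.30 to 2.81 on the log2 scale, and had amplitudes of 0.28 to 1.23 in SCNx. Arntl, the gene targeted in KO, stood at 11.1 CPM at ZT7 and 9.06 CPM at ZT18, and these gene totals do not show whether the deleted exon was present.

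Of the 42 members, 22 (52.4%) had a 24 h rhythm in Ctrl at a Benjamini-Hochberg adjusted p under 0.05 (quasi-likelihood test of edgeR), against 10.7% of all tested genes. Among these 22, 19 had their fitted peak between CT16 and CT24, in the subjective night, when mice are active, against 42.8% of all rhythmic genes. Rhythmic members with such a peak made up 45.2% of the 42, against 4.56% of all tested genes. The other three, Hspb6, Dnaja2 and Dnajb6, peaked between CT10.7 and CT13.8. The median amplitude, which is the height of the fitted 24 h curve above its mean, was 0.18 on the log2 scale for the members and 0.11 for all tested genes. Each of the 4 libraries of the middle and late night (CT16, CT20, CT40 and CT44) exceeded each of the 4 of the day (CT4, CT8, CT28 and CT32) for 18 members, against 6.53% of all tested genes, and the night mean was above the day mean in both cycles for 34 members, against 32.6%. These windows were chosen after the values had been seen.

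**Figure D1:**
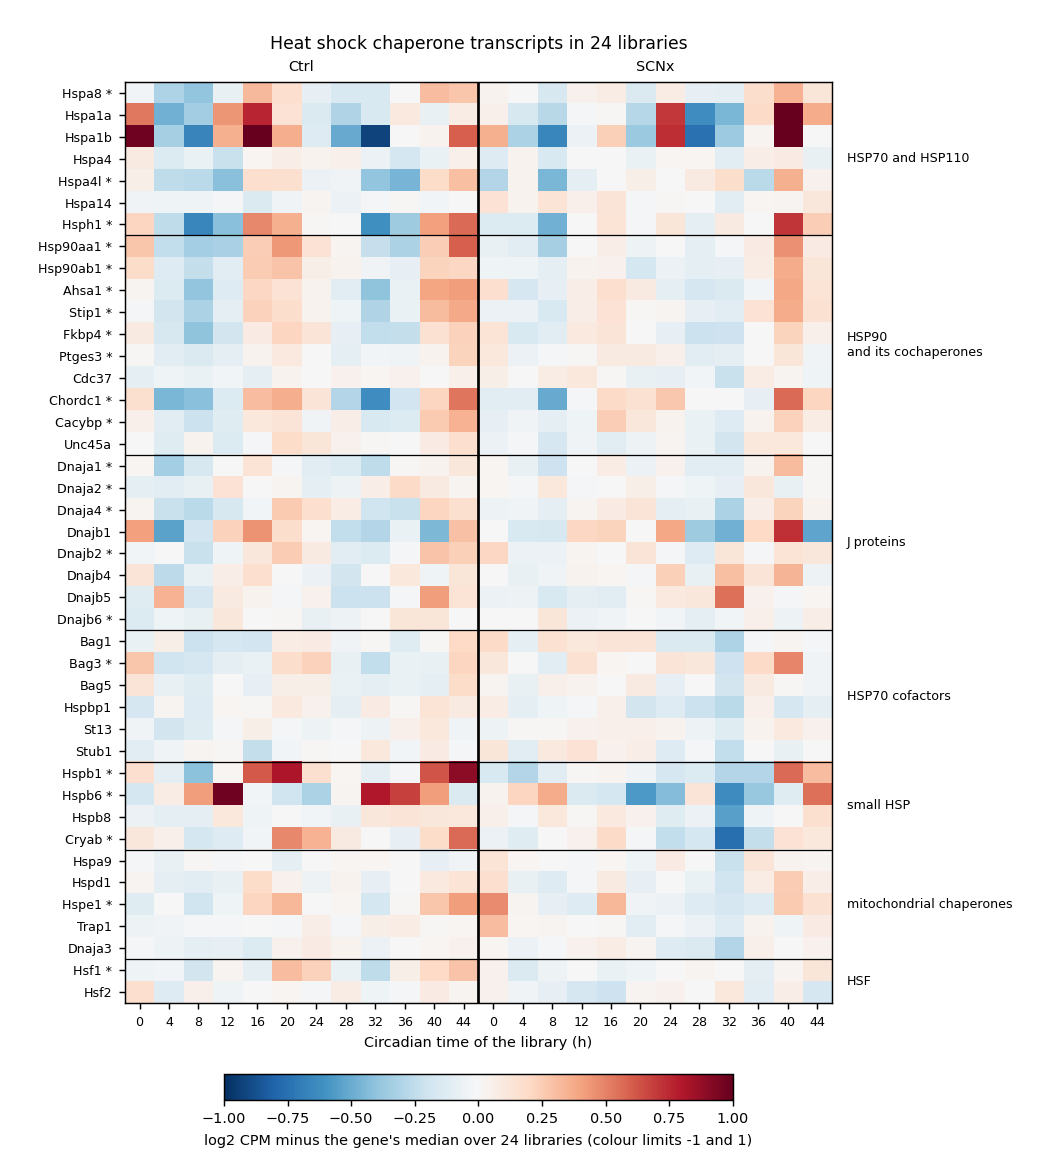
Levels of the 42 chaperone transcripts (rows, grouped by role, with an asterisk at the 22 that were rhythmic in Ctrl) in the 12 Ctrl and 12 SCNx libraries (columns, by circadian time in h), as log2 CPM minus the median of the gene over the 24 libraries. In Ctrl most genes of HSP70, HSP90 and the cochaperones are blue at CT4, CT8 and CT32 and red at CT16, CT20, CT40 and CT44, and in SCNx the column of CT40 is the reddest.

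Per kilobase of exon, the constitutive HSP70 Hspa8 was the most abundant member, at 702 ± 115 CPM per kb in Ctrl (SD, n = 12). Hsp90ab1 (423 ± 50.6 CPM per kb) and Hsp90aa1 (372 ± 85.4 CPM per kb) followed, and their order was within the spread over the day. The small heat shock proteins Cryab and Hspb8 came next at 115 ± 19.9 and 106 ± 6.87 CPM per kb, again within their spread. The stress-inducible Hspa1a and Hspa1b had the lowest means of the 42 in Ctrl, at 2.69 ± 0.742 and 1.74 ± 0.892 CPM per kb. Dnajb5, at 2.73 ± 0.399 CPM per kb, was within the spread of Hspa1a. Transcripts of Hspa1a and Hspa1b share 52.7% and 55.8% of their windows of 75 bases, so the split of reads between both genes is uncertain.

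Hsf1, the transcription factor that answers heat and misfolded protein, ranged in Ctrl from 22.9 CPM at CT32 over a median of 27.4 to 33.8 CPM at CT20. Its amplitude was 0.20 ± 0.050 on the log2 scale (SE, n = 12), with a peak at CT19.7 (edgeR adjusted p = 0.00972). Hsf2, a related factor that takes part in development and in the stress response, ranged from 22.4 over 24.7 to 27.6 CPM, with an amplitude of 0.036 ± 0.032 (adjusted p = 0.811). In SCNx, Hsf1 ranged from 24.7 to 29.8 CPM, with an amplitude of 0.043 ± 0.029. Its curves in both groups did not differ at the threshold (edgeR adjusted p of the difference = 0.316, unadjusted p = 0.0423).

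The promoters of the members are shown because heat shock elements are the sequence through which HSF1 acts. RefSeq's table of promoters, on the build GRCm38.p6 and from 250 bases before to 50 after each start, held 35 of the 42 members. Hspa8, Hsp90aa1, Hsp90ab1, St13, Cryab, Hspa9 and Hsf1 were not among them. A run of 3 alternating units, which is GAA, TTC and GAA or TTC, GAA and TTC with 2 bases of any kind between units, was found in 5 of the 35, against 0.662% of the 27025 gene symbols of the table and 0.562% of those tested here. The 5 stretches follow, 5′ to 3′ on the strand of the gene, with the element in capitals. Of these genes, Chordc1, Hsph1, Hspe1 and Dnajb6 were rhythmic in Ctrl, and Hspd1 was not.
Chordc1, chr9:18292259-18292288, plus strand: accgGAACGTTCGGGAAAATTCCTGAAgca
Hsph1, chr5:149636280-149636309, minus strand: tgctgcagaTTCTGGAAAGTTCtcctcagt
Hspe1, chr1:55088053-55088082, plus strand: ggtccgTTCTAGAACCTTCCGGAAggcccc
Hspd1, chr1:55088053-55088082, minus strand: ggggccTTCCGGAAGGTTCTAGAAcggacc
Dnajb6, chr5:29735843-29735872, plus strand: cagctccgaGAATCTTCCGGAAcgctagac

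Hspd1 and Hspe1 are divergent neighbours on chromosome 1, so their 2 stretches are the strands of 1 element, which lay 89 to 72 bases before the start of Hspe1 and 144 to 127 before that of Hspd1. In Chordc1 the element ran across the start, from base -4 to base 19, and in Hsph1 it lay just downstream of the start. The shorter pair of units GAANNTTC, which every run of 3 units contains, was found in 15 of the 35 members, against 9.04% of symbols and 6.90% of those tested. It was present in 10 of the 17 rhythmic and 5 of the 18 other members with a promoter. The pair in the reverse order, TTCNNGAA, was found in 7 members, against 9.60% of symbols and 8.17% of those tested. The E-box CACGTG, to which the clock proteins CLOCK and BMAL1 bind, was found in 4 members (Hsf2, Hspd1, Hsph1 and Stub1), against 8.09% of symbols and 1210 of the 10495 symbols tested, so that its share among the members was near that of the tested genes. Each motif was searched on both strands, and a match is a description of these letters and not of a factor's binding.
The pairs of units in Hspb1, Fkbp4 and Hspa1a are printed as examples from rhythmic cochaperone and small heat shock genes and from the inducible HSP70 gene.
Hspb1, chr5:135887811-135887840, plus strand: agatgggggcaGAACCTTCctggccccgcc
Fkbp4, chr6:128438789-128438818, minus strand: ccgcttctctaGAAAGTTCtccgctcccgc
Hspa1a, chr17:34972242-34972271, minus strand: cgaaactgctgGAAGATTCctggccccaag

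In the HSP70 and HSP110 families, 3 of 7 members were rhythmic in Ctrl. Hspa8, which folds new proteins and uncoats clathrin vesicles, ranged from 1275 CPM at CT8 over a median of 1612 to 2097 CPM at CT16. Its 4 night libraries lay between 1880 and 2097 CPM and its 4 day libraries between 1275 and 1504 CPM. The fitted peak at CT17.8 was 1.52-fold over the trough, with an amplitude of 0.30 ± 0.036 (SE, n = 12) and an adjusted p of 0.000656. Hsph1, an HSP110 that exchanges nucleotide on HSP70 and helps to dissolve aggregates, ranged from 117 CPM at CT8 over 184 to 272 CPM at CT44. Its groups of night and day libraries did not overlap either (234 to 272 against 117 to 183 CPM), and the peak at CT19.9 was 2.13-fold over the trough (amplitude 0.54 ± 0.072, adjusted p = 0.000639). Hspa4l, another HSP110, ranged from 126 over 169 to 214 CPM and peaked at CT20.4 (amplitude 0.31 ± 0.058, adjusted p = 0.0246).

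The heat-inducible Hspa1a and Hspa1b had large but uneven swings. Hspa1a ranged in Ctrl from 5.37 CPM at CT4 over 7.51 to 12.7 CPM at CT16, and Hspa1b from 2.15 CPM at CT32 over 4.14 to 10.8 CPM at CT16. Their highest night values came in the first cycle, and Ctrl CT0 was high as well, at 10.8 CPM for Hspa1a and 8.03 CPM for Hspa1b. The amplitudes of 0.34 ± 0.13 and 0.76 ± 0.20 did not pass the test (adjusted p = 0.435 and 0.156), although the night libraries exceeded the day libraries for both genes. Hspa4 (302 to 373 CPM) and the ribosome-associated Hspa14 (16.4 to 18.5 CPM) had adjusted p-values of 0.0789 and 0.975.

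HSP90 and its cochaperones gave the densest set, with 8 of 10 members rhythmic in Ctrl and all of their peaks between CT18.9 and CT20.5. Hsp90aa1, the inducible cytosolic HSP90, ranged from 940 CPM at CT8 over 1264 to 1806 CPM at CT44, with night libraries of 1412 CPM or more and day libraries of 1213 CPM or less. Its peak was 1.78-fold over the trough (amplitude 0.42 ± 0.049, SE, n = 12, adjusted p = 0.000123). Hsp90ab1, the constitutive HSP90, ranged from 866 over 1054 to 1243 CPM and had a smaller amplitude of 0.21 ± 0.034 (adjusted p = 0.00928).

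Since both paralogues were measured in the same libraries, their ratio does not depend on library size. In Ctrl the ratio of Hsp90aa1 to Hsp90ab1 ranged from 0.991 at CT36 over a median of 1.16 to 1.53 at CT44, so that it was lowest at the end of the subjective day and highest late in the subjective night. The ratio is one of CPM not scaled to exon length, so it does not rank the paralogues by abundance. The 24 h curve of the log2 ratio had an amplitude of 0.21 ± 0.037 and a peak at CT21.2 (p = 0.00022, 2-sided permutation test with 100000 permutations of the times, n = 12). In SCNx the ratio ranged from 0.988 over 1.18 to 1.27, with an amplitude of 0.063 ± 0.037 (p = 0.278 by the same permutation test).

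Among the cochaperones, Chordc1, a zinc-binding partner of HSP90 that is itself heat-inducible, had the widest swing. It ranged from 39.1 CPM at CT32 over 60.2 to 87.4 CPM at CT44, a 1.97-fold fitted change (amplitude 0.49 ± 0.033, adjusted p = 8.07e-05). Ahsa1, the activator of the HSP90 ATPase, had a median of 60.1 and a highest value of 81.2 CPM, with day libraries of 56.5 CPM or less, and its amplitude was 0.33 ± 0.046 (adjusted p = 0.00012). Stip1, the adaptor that joins HSP70 to HSP90, ranged from 148 over 181 to 239 CPM with an amplitude of 0.29 ± 0.036 (adjusted p = 0.000108). All of these were lowest at CT8 or CT32 and highest at CT44.

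Fkbp4, the FKBP52 immunophilin that helps steroid receptors to bind hormone and move to the nucleus, had the smallest p of the 42. It ranged from 82.4 CPM at CT8 over 109 to 128 CPM at CT44, with an amplitude of 0.28 ± 0.023 and an adjusted p of 2.72e-05. Cacybp ranged from 79.8 over 93.1 to 118 CPM (amplitude 0.20 ± 0.043, adjusted p = 0.00319), and Ptges3, the p23 protein that stabilises HSP90 with its client, from 79.4 over 87.2 to 103 CPM (amplitude 0.12 ± 0.023, adjusted p = 0.00985). A pseudogene of Ptges3 took counts equal to 13.5% of those of Ptges3, and the share of reads between them is uncertain. The kinase-specific Cdc37 (77.2 to 85.6 CPM, adjusted p = 0.995) and the myosin chaperone Unc45a (38.3 to 47.7 CPM, adjusted p = 0.270) did not pass the test.

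**Figure D2:**
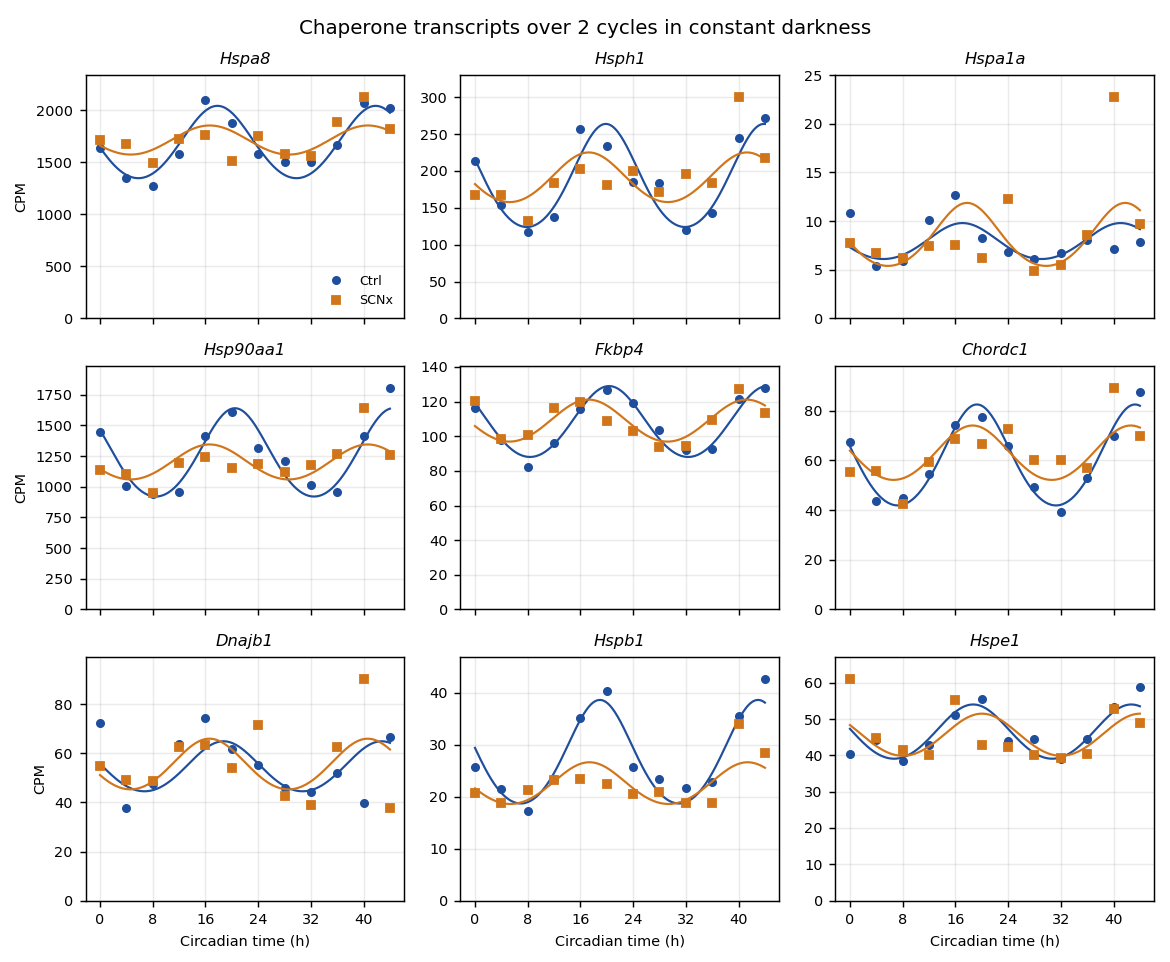
CPM of 9 chaperone transcripts against circadian time in h, with 1 point for each Ctrl mouse (blue circles) and each SCNx mouse (orange squares) and the fitted 24 h curve of each group. Hspa8, Hsph1, Hsp90aa1, Fkbp4, Chordc1, Hspb1 and Hspe1 had a rhythm in Ctrl with night values above day values in both cycles. Every gene shown except Hspe1 was highest of the SCNx mice at CT40.

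The J proteins, which carry clients to HSP70 and start its ATP cycle, were rhythmic in 5 of 8 cases. Dnaja4 ranged from 130 over 157 to 188 CPM with a peak at CT20.6 (amplitude 0.23 ± 0.043, SE, n = 12, adjusted p = 0.00284). Dnajb2, which sorts clients to the proteasome, ranged from 39.3 over 45.5 to 55.9 CPM with a peak at CT18.9 (amplitude 0.20 ± 0.029, adjusted p = 0.00166), and Dnaja1 from 171 over 215 to 238 CPM with a peak at CT17.4 (amplitude 0.17 ± 0.032, adjusted p = 0.0144). Dnaja2 and Dnajb6 differed in timing, with peaks at CT13.5 and CT13.8 and small amplitudes of 0.12 ± 0.024 and 0.095 ± 0.020 (adjusted p = 0.0216 and 0.0423), and the call of Dnajb6 was lost under 14 of 33 alternatives. Dnajb1, the J protein most readily induced by heat, ranged from 37.6 CPM at CT4 over 53.6 to 74.4 CPM at CT16. Its second night was uneven, with 39.8 CPM at CT40 and 66.6 CPM at CT44, and its amplitude of 0.27 ± 0.12 did not pass the test (adjusted p = 0.342). Dnajb4 and Dnajb5 had adjusted p-values of 0.326 and 0.616.

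Only Bag3 of the 6 HSP70 cofactors passed the test in Ctrl. Bag3, which links HSP70 to small heat shock proteins and to selective autophagy, ranged from 31.8 CPM at CT32 over 35.8 to 45.5 CPM at CT0 and peaked at CT21.4 (amplitude 0.21 ± 0.039, SE, n = 12, adjusted p = 0.0375), a call lost under 8 of 33 alternatives. For the exchange factors Bag1, Bag5 and Hspbp1, the adaptor St13 and the ubiquitin ligase Stub1, adjusted p lay between 0.0707 for St13 and 0.775 for Stub1, and the amplitudes were 0.12 or less.

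Of the small heat shock proteins, which hold unfolded clients without using ATP, 3 of 4 were rhythmic in Ctrl, but not in phase. Hspb1 ranged from 17.3 CPM at CT8 over 24.5 to 42.7 CPM at CT44, with night libraries of 35.2 CPM or more and day libraries of 23.3 CPM or less. Its peak at CT19.0 was 2.07-fold over its trough (amplitude 0.52 ± 0.062, SE, n = 12, adjusted p = 0.000145). Cryab, αB-crystallin, ranged from 120 over 142 to 200 CPM and peaked at CT21.3 (amplitude 0.28 ± 0.053, adjusted p = 0.0248). Hspb6 ranged from 20.6 CPM at CT24 over 26.6 to 50.6 CPM at CT12 and peaked at CT10.7, at the end of the subjective day (amplitude 0.55 ± 0.074, adjusted p = 0.0119). Its highest libraries were CT12, CT32 and CT36, and its amplitude was the largest among the 22 rhythmic members. Hspb8 ranged from 177 over 188 to 208 CPM (adjusted p = 0.546).

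In mitochondria, Hspd1 (HSP60) forms the folding chamber and Hspe1 (HSP10) its lid. Hspe1 ranged in Ctrl from 38.4 CPM at CT8 over 44.3 to 58.8 CPM at CT44 (amplitude 0.23 ± 0.047, SE, n = 12, peak at CT18.7, adjusted p = 0.0373), but this call was lost under 8 of 33 alternatives. Hspd1 shares the promoter printed above and ranged from 178 over 194 to 218 CPM. Its night libraries (198 to 218 CPM) lay just above its day libraries (178 to 197 CPM), and its amplitude of 0.10 ± 0.026 did not pass the test (adjusted p = 0.156). The import motor Hspa9, the HSP90 of mitochondria Trap1 and the J protein Dnaja3 had amplitudes of 0.030, 0.015 and 0.057 (adjusted p from 0.451 to 0.955). Thus 1 of the 5 mitochondrial chaperones passed the test.

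After ablation of the suprachiasmatic nuclei, no member passed the same test for a rhythm, and neither did any other gene (0% of those tested). The smallest adjusted p in SCNx was 0.137, and Fkbp4, Stip1 and Ahsa1 were among the genes that had it. In SCNx 18 members had an unadjusted p under 0.05, against 14.8% of all tested genes. Of these 18, 14 were rhythmic in Ctrl as well, and the matching share over all genes was not counted. In SCNx DESeq2's likelihood ratio test called 6 members at an adjusted p under 0.05 and limma 0. The share of all genes that DESeq2 called is not given here, so this count cannot be read as particular to the members. Fkbp4 ranged in SCNx from 94.0 over 109 to 127 CPM, with an amplitude of 0.16 ± 0.036 (SE, n = 12, unadjusted p = 0.000189). Ahsa1 ranged from 54.0 over 61.5 to 79.4 CPM and Stip1 from 166 over 187 to 238 CPM, with amplitudes of 0.20 ± 0.041 and 0.17 ± 0.037. For 10 members each night library exceeded each day library in SCNx, against 1.96% of all tested genes, and the night mean was above the day mean in both cycles for 33 members, against 28% of all genes. Among these 10, Cacybp, Dnaja4, St13 and Dnaja3 had their lowest SCNx value in the day library CT32, and the others elsewhere. SCNx CT32 had high neuron markers and the lowest sum of ChP epithelium markers (106699 CPM, against an SCNx median of 149306 CPM). Its part in these night and day values was not tested.

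These weak curves in SCNx had similar times of peak. Their fitted peaks lay between CT15.7 and CT20.0, whereas 19.2% of all genes with an unadjusted p under 0.05 peaked between CT15 and CT21. Of the 14 members that were rhythmic in Ctrl and had an unadjusted p under 0.05 in SCNx, 13 peaked earlier in SCNx, by a median of 2.23 h over the 14, and Hspe1 peaked 1.34 h later. Peak shifts were not counted over all genes, so whether an earlier peak is particular to the members is not shown. Hsp90aa1 shifted from CT20.5 to CT16.6 and Hsp90ab1 from CT19.7 to CT15.7 in these fits.

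**Figure D3:**
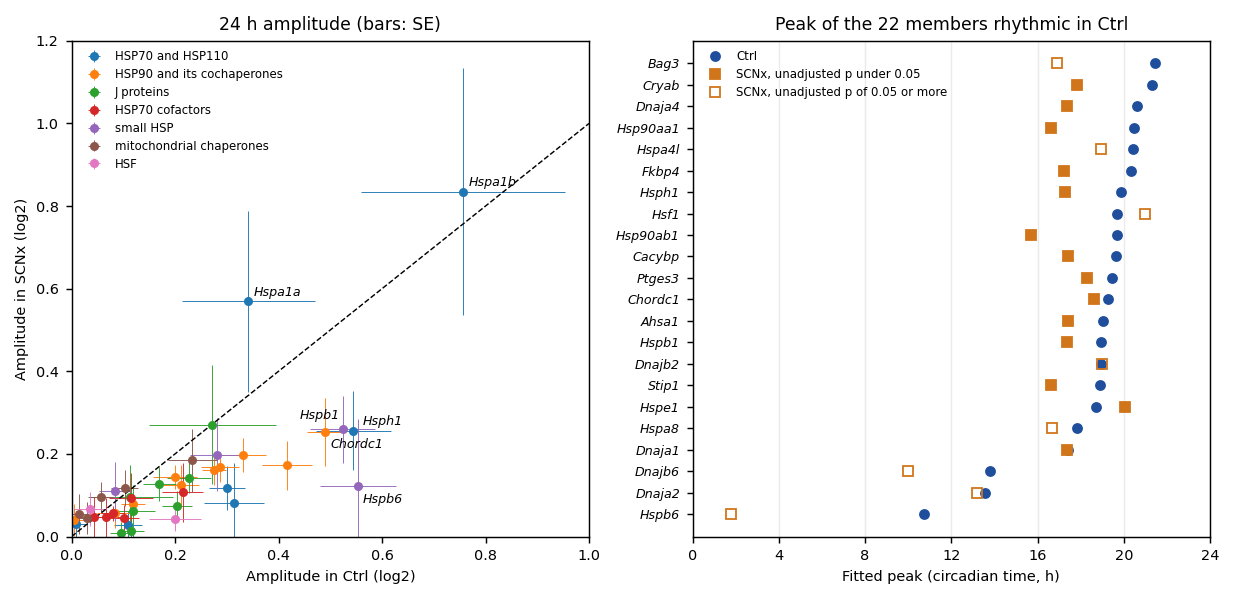
Left, amplitude of the fitted 24 h curve (log2) in SCNx against that in Ctrl for the 42 members, coloured by role, with bars of 1 SE and a dashed line of equal amplitude; right, time of the fitted peak in Ctrl (blue circles) and SCNx (orange squares, filled where the unadjusted p was under 0.05) for the 22 members rhythmic in Ctrl. Most points lie under the line, and 31 of 42 amplitudes were larger in Ctrl.

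The library of SCNx CT40 stood apart for the chaperones. It was the highest of the 12 SCNx libraries for 22 members, against 6.03% of all tested genes. Against the median of the other SCNx libraries, Hspa1a was 3.06-fold higher (22.8 CPM, with the others at 4.89 to 12.2 CPM). Hspa1b exceeded the others by more still, at 19.6 CPM against 2.43 to 6.81 CPM. Dnajb1, Hsph1 and Hspb1 followed at 1.67, 1.64 and 1.63 times that median, and Chordc1, Hsp90aa1 and Bag3 at 1.48, 1.39 and 1.38 times. Hspa1a, Hspa1b, Dnajb1 and Hsph1 are textbook genes of heat induction. Hsf1, Hspa9 and Dnaja2 stood in this 1 mouse at 1.02, 1.01 and 0.953 times the median. Summed markers of neurons (10.6 CPM) and hepatocytes (324 CPM) were below the SCNx medians of 15.9 and 342 CPM in this library, and the immediate early genes summed to 22.2 CPM, at the SCNx median. The sum of the ER lumen chaperones was the highest of SCNx in it as well, at 9381 CPM, as was that of the CCT chaperonin, at 1108 CPM. Fibroblast markers summed to 456 CPM, the second highest of SCNx, against a median of 398 CPM. The part of these in the chaperone values was not tested.

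**Figure D4:**
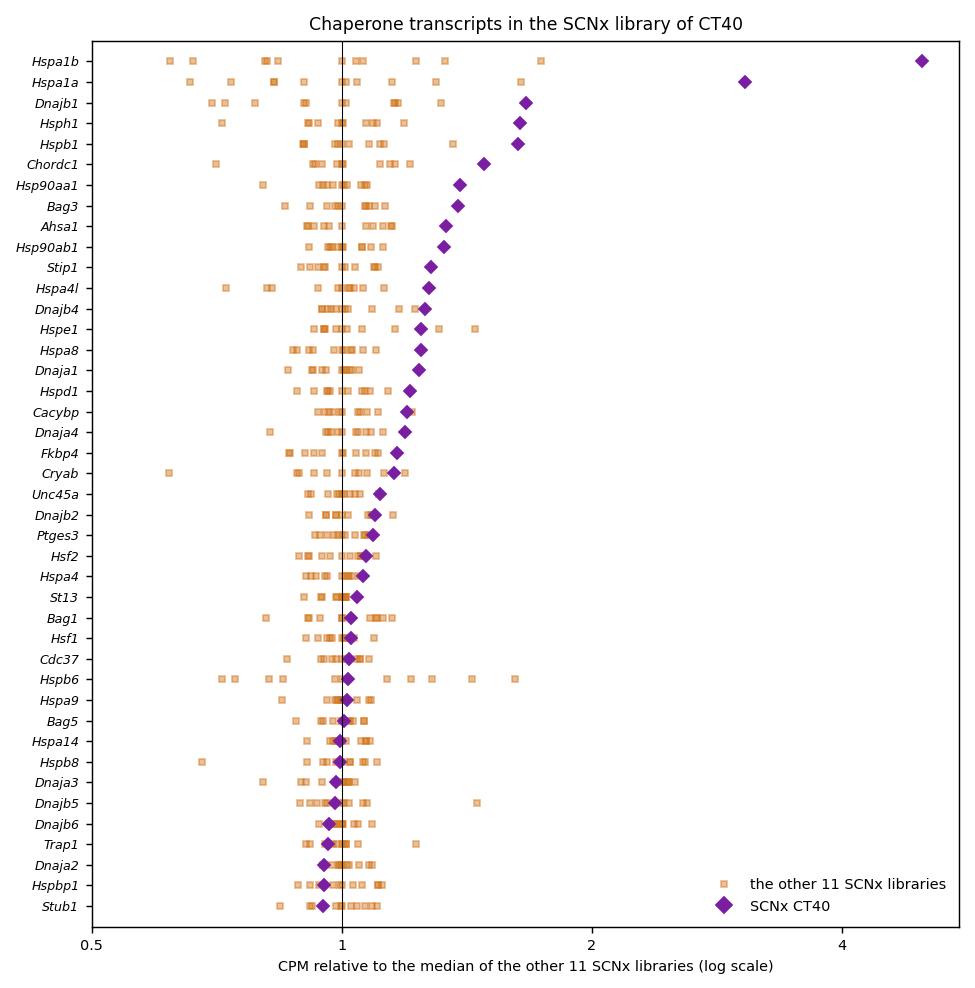
CPM of each member in the SCNx library of CT40 (purple diamonds) and in the other 11 SCNx libraries (orange squares), divided by the median of those 11 and drawn on a log axis, with members ordered by the value of CT40. Hspa1b stands farthest out, Hspa1a follows at 3.06, and 22 of the 42 members lie above all of the other mice.

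Without this library, which was left out after its values had been seen, 10 members had an unadjusted p under 0.05 in SCNx, against 16.1% of all tested genes. Each of the 3 remaining night libraries exceeded each of the 4 day libraries for 10 members as well, against 3.15%. Of the 14 members above, 11 still had an earlier peak than in Ctrl, with a median shift of 1.87 h, again without a count over all genes. Some of these peaks came from curves that no longer had an unadjusted p under 0.05. Without CT40 the unadjusted p by edgeR was 0.155 for Hsp90aa1, 0.271 for Hsp90ab1 and 0.129 for Hsph1. Fkbp4, Ahsa1 and Stip1 had amplitudes of 0.14, 0.16 and 0.13 without it (unadjusted p = 0.00152, 0.0051 and 0.00706 by edgeR).

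The test of the difference itself asked whether the curves of both groups differed. Fkbp4 and Hsp90aa1 passed it (edgeR adjusted p = 0.0372 and 0.0404), which is 2 of 42 members, against 2.12% of all tested genes. Fkbp4 had an amplitude of 0.28 ± 0.023 at CT20.3 in Ctrl and of 0.16 ± 0.036 at CT17.2 in SCNx. Hsp90aa1 ranged in SCNx from 948 over 1183 to 1639 CPM, against 940 to 1806 CPM in Ctrl, and its amplitude was 0.17 ± 0.060, against 0.42 ± 0.049. At an unadjusted p under 0.05, 15 members differed, against 15.1% of all tested genes, and Hspb6 had the next smallest p (adjusted p = 0.113), with an amplitude of 0.12 ± 0.16 in SCNx. Both calls depended on single mice. The call of Fkbp4 was lost without 12 of the 24 libraries, each left out in turn (adjusted p up to 0.0758), and that of Hsp90aa1 without 15 (up to 0.0918).

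A larger amplitude in Ctrl than in SCNx was fitted for 31 of 42 members, against 55.3% of all tested genes. The median amplitude of the members was 0.18 in Ctrl and 0.10 in SCNx, and that of all tested genes 0.11 and 0.091. The spread of log2 CPM over the 12 libraries was larger in Ctrl for 25 members, against 37.5% of all tested genes. Hspa1a (0.57 ± 0.22) and Hspa1b (0.83 ± 0.30) were among the members with the larger amplitude in SCNx, both with their highest value at CT40. Without SCNx CT40 their amplitudes in SCNx were 0.29 and 0.35, below those of 0.34 and 0.76 in Ctrl.

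Averaged over the day, the levels of the chaperones differed little between the groups. No member passed the test for a level difference (0% of all tested genes did, and DESeq2 and limma called 0 members too), with adjusted p-values of 0.450 or more for the members. By the unadjusted p, at the same threshold of 0.05, 3 members were lower in SCNx, against 4.58% of all tested genes, and 1 was higher, against 4.78%. In SCNx the mean of Hspb1 was 22.6 ± 4.49 CPM, against 27.9 ± 8.29 CPM for the Ctrl mice (SD, n = 12), a log2 fold change of -0.30 ± 0.14 (SE). The means of Cryab were 148 ± 25.7 in Ctrl and 128 ± 20.0 CPM in SCNx (log2 fold change -0.21 ± 0.095), and those of the exchange factor Hspbp1 19.2 ± 1.23 and 18.0 ± 1.39 CPM (-0.096 ± 0.044). Hspa14 was the one with a higher level, by 0.078 ± 0.029 on the log2 scale. All 4 small heat shock proteins had a lower fitted level in SCNx, with a median of -0.26, against 15 of the 42 members and 43.5% of all tested genes with a lower fitted level. The median over the 42 was 0.0065 and that over all tested genes was 0.011. Cryab and Hspb8 were lowest of all libraries in SCNx CT32 (80.0 and 130 CPM), the library with the high neuron markers, and without it and Ctrl CT4 the fold change of Cryab was -0.17 and that of Hspb1 -0.32.

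Stress and ER genes are known from liver for 12 h components, and these were tested beside the 24 h curve. No member had a 12 h component in Ctrl at an adjusted p under 0.05 (0% of all tested genes did), all adjusted p-values of members were 1 by edgeR, and DESeq2 and limma called 0 members. At an unadjusted p under 0.05 there were 2, Bag3 and Cacybp, against 4.19% of all tested genes. With 1 mouse every 4 h, a 12 h curve rests on few times per cycle, which limits what this test could detect.

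Related chaperones outside the 42 behaved in different ways. Of 34 further tested chaperone and cochaperone genes of the cytosol and mitochondria, 4 were rhythmic in Ctrl, against 10.7% of all tested genes. Ppid, the cyclophilin partner of HSP90, peaked at CT19.8 (amplitude 0.17 ± 0.028, adjusted p = 0.0158), close to the members, whereas Fkbp5, a glucocorticoid-induced partner of HSP90, peaked at CT12.6 (0.74 ± 0.20, adjusted p = 0.00268). Sugt1 peaked at CT2.27 and Tomm70a at CT5.94. Of the 8 subunits of the chaperonin CCT, which folds actin and tubulin, only Cct4 passed the test (0.098 ± 0.017, CT19.8, adjusted p = 0.0244). In the ER lumen 13 of 14 chaperones were rhythmic in Ctrl and 7 differed between the groups. The HSP70 of the ER, Hspa5, had an amplitude of 0.74 ± 0.11 at CT20.5 and its HSP90, Hsp90b1, one of 0.50 ± 0.063 at CT21.5, against 0.30 for Hspa8 and 0.42 for Hsp90aa1 in the cytosol.

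Cirbp and Rbm3, whose RNA is known to rise with cooling, were rhythmic in Ctrl with peaks in the subjective day, whereas most rhythmic members peaked in the night. Cirbp peaked at CT8.02 (amplitude 0.82 ± 0.10, adjusted p = 0.0012) and ranged from 10.9 CPM at CT44 to 40.0 CPM at CT32. Rbm3 peaked at CT10.9 (0.59 ± 0.067, adjusted p = 0.002). In SCNx their amplitudes were 0.39 and 0.17. Body temperature was not measured in these data.

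In KO, with 1 mouse at each time and no test possible, the night values of the chaperones were not above the day values as they were in Ctrl. The level was higher at ZT18 than at ZT7 for 11 of 42 members, against 50.2% of all tested genes, with a median difference of -0.11 on the log2 scale, and the median of all tested genes was 0.0015. The curves of Ctrl and SCNx at the same hours gave a higher level at hour 18 for 38 members each, against 47.7% and 48.9% of all tested genes, with medians of 0.27 and 0.17. Past a log2 difference of 0.25, 12 members (28.6%) were lower at ZT18, a share near the 23.1% of all tested genes, and 4 (9.52%) were higher, against 23.9%. Hsp90aa1 stood at 2072 CPM at ZT7 and 1352 CPM at ZT18 (-0.62), Hspe1 at 54.2 and 35.6 CPM (-0.61), Cacybp at 113 and 75.9 CPM (-0.57), Chordc1 at 62.6 and 45.7 CPM (-0.45) and Hspa8 at 2009 and 1614 CPM (-0.32). The 4 that were higher were Hspa1b (3.93 and 8.63 CPM, from 65 and 161 counts), Hspb1 (14.9 and 23.7 CPM, from 247 and 441 counts), Dnajb5 (8.59 and 11.9 CPM) and Bag3 (44.4 and 57.7 CPM). Hspa5 and Hsp90b1 were also lower at ZT18, with differences of -0.40 and -0.51 on the log2 scale. The CCT subunits, of which 1 of 8 was rhythmic in Ctrl, were lower too. They summed to 868 CPM at ZT7 and 702 CPM at ZT18, with 0 of 8 higher at ZT18. Of the 35 further chaperone genes of the cytosol and mitochondria, 17 were higher at ZT18. The hours of KO were set by a light cycle and those of Ctrl and SCNx by constant darkness, and the part of the light regime in this contrast was not tested. The KO libraries also differed in markers of other cells. From ZT7 to ZT18 the summed markers went from 226 to 312 CPM for neurons (8 of 9 genes higher at ZT18), from 323 to 432 CPM for oligodendrocytes (4 of 5), from 269 to 400 CPM for fibroblasts (4 of 5) and from 91867 to 80087 CPM for ChP epithelium (2 of 10). Immediate early genes summed to 24.0 CPM at ZT7 and 45.5 CPM at ZT18 (5 of 7 higher). The part of these differences in the chaperone values was not tested.

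**Figure D5:**
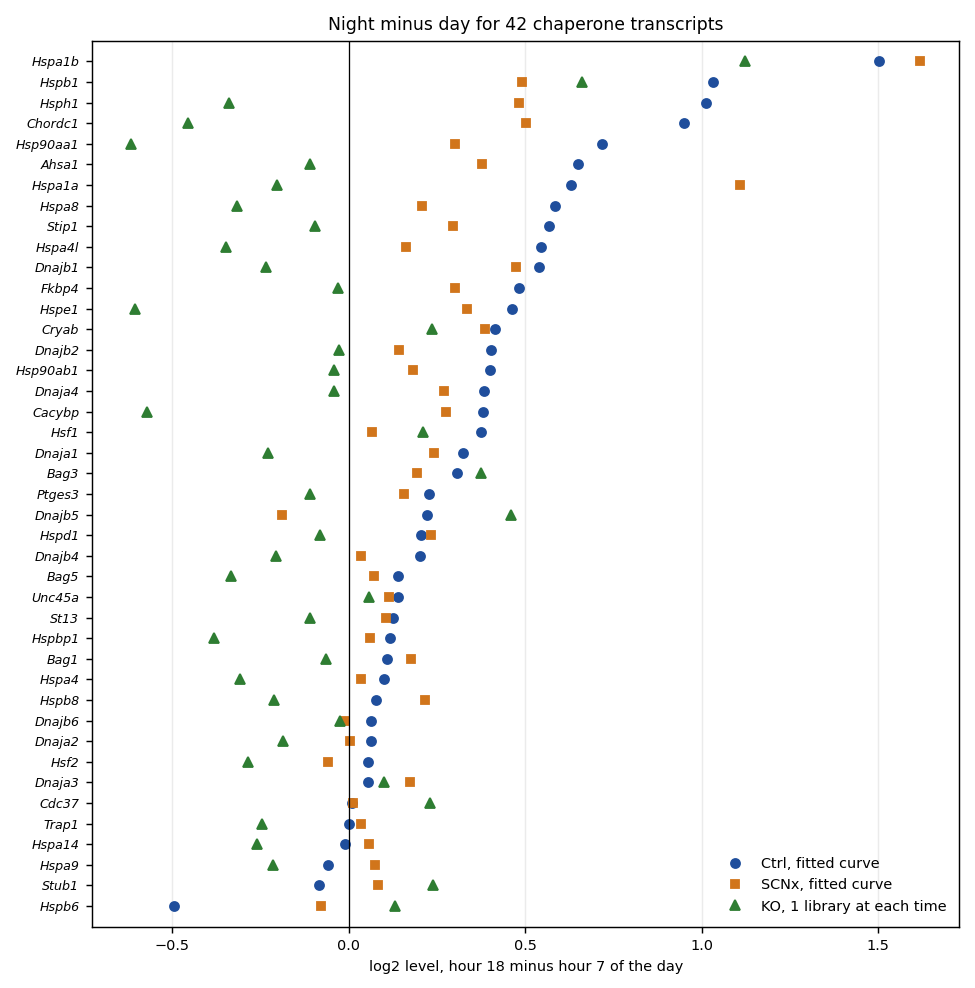
Log2 level at hour 18 minus that at hour 7 for the 42 members, ordered by the value in Ctrl, from the fitted curves of Ctrl (blue circles) and SCNx (orange squares) and as the difference between the 2 KO libraries (green triangles). In Ctrl and SCNx 38 of 42 points lie above 0, and in KO 11 of 42.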

How the data were processed

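The members and gene lists were chosen with earlier results of these data known. For Ctrl, SCNx and KO the authors deposited Salmon's estimated counts per gene, not normalized, which were rounded to whole numbers before tests. Per the labels, the submitters' processing notes name STAR, Salmon 1.9.0 and GRCm39. Tests covered the genes whose mean CPM reached 1 in Ctrl and also in SCNx, at depths of 38751201 to 49527655 estimated counts per library. In edgeR 4.0.16 (R 4.3.3), with TMM factors of 0.955 to 1.08, each group of the 24 libraries received its own mean and its own 24 h curve (cosine and sine terms) in 1 joint model, and a model of group means compared levels. P-values come from its quasi-likelihood test, adjusted by Benjamini-Hochberg over all 13697 genes, at a threshold of 0.05. CPM are TMM-adjusted, and log2 CPM used a prior count of 1. Alternatives were DESeq2 1.42.0, limma 3.58.1, other filters and left-out libraries. The scripts were tested on simulated data. Values are given for members rhythmic in Ctrl (20 by p, to which Bag3 and Dnajb6, the other two, were added after their values were seen) and for the main chaperones and heat shock factors whatever their p, for levels with an unadjusted p under 0.05, and for rhythmic genes of the related lists. KO, with 1 mouse per time, was described without tests. Exon lengths and promoters came from tables on GRCm38, another build than that of the counts.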

Additional observations from a re-analysis of the deposited data

Results flagged for a closer look

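The 24 h curves of Fkbp4 and Hsp90aa1 differed between Ctrl and SCNx by the test of the difference itself, with adjusted p-values of 0.0372 for Fkbp4 and 0.0404 for Hsp90aa1 (edgeR's quasi-likelihood test). Both amplitudes were larger in Ctrl, at 0.28 against 0.16 for Fkbp4 and 0.42 against 0.17 for Hsp90aa1. With 1 library left out at a time, the adjusted p ranged from 0.00392 to 0.0758 for Fkbp4 and from 0.0140 to 0.0918 for Hsp90aa1. Under the other settings it ranged from 0.00224 to 0.151 and from 0.00164 to 0.0809.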

How the results depend on the processing

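With 1 library left out at a time, 16 to 24 members were rhythmic in Ctrl, with the lowest count without Ctrl CT44, and the other settings gave 16 to 24 as well. In SCNx, 0 members passed at the adjusted threshold in every leave-one-out fit, but 6 did by DESeq2's tests and 7 without a filter on low counts. The shares of all genes called under these settings are not given here. At an unadjusted p under 0.05 the SCNx count ranged from 10, without SCNx CT40, to 20. The members whose rhythm differed between the groups numbered 0 to 3 with 1 library left out, 1 without a filter and 1 without Ctrl CT16 and SCNx CT0. No member differed in level at the adjusted threshold under any setting, and the count at an unadjusted p under 0.05 ranged from 1 to 6 with 1 library left out and was 2 with circadian time as a block. Without a filter, 2 members had a 12 h component. The cause of these changes was not tested. Of 1086 alternative values for named members, 1010 kept their direction and side of the threshold, 73 lost and 3 gained a call, and none reversed. The call of Dnajb6 was lost in 14 of 33 settings, those of Hspe1 and Bag3 in 8 each, of Hspa4l in 4, of Cryab in 3, of Ptges3 and Dnaja2 in 2 each, and of Hsp90ab1 and Dnaja1 in 1 each. The SCNx fits without CT40 and the night and day windows were chosen after seeing the data. The labels give the mice no replicate numbers, so mice of both groups share only their circadian time, which was the block named above.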
